A study of Mus musculus with 6 samples.

Results

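The genes described here are 7 ligands, receptors and inhibitors that control the formation of osteoclasts, the cells that resorb bone. They were chosen by name, as the rows of the authors' deposited table for Tnfsf11, Tnfrsf11b, Tnfrsf11a, Csf1, Il34, Csf1r and Sema3a, and all 7 of 7 were found among the 23170 genes of that table. RNA was sequenced from subchondral bone, the bone beneath the joint cartilage, of the mandibular condyle, the rounded head of the lower jaw in the temporomandibular joint. The groups were 3 libraries after partial discectomy, an operation that removes part of the joint disc and is used to bring on joint degeneration, and 3 libraries after sham operation. All mice carry the label wild type, with no strain background named, and the age label P6w+PO2w, which gives 6 weeks and a further 2 weeks without spelling out its prefixes. Mice were operated on 1 side, and the operated joint gave the bone. Sample descriptions end in LPD for partial discectomy and Rctrl for sham, and whatever else those letters record, such as a body side if R and L mean right and left, cannot be told apart from the operation. The number before the letters is shared by 1 library of each group, and the labels do not say what it marks. It is not labelled whether each library is a mouse of its own.

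RANKL, the product of Tnfsf11, is a membrane or shed ligand that binds the receptor RANK (Tnfrsf11a) on osteoclast precursors and turns on NF-kappaB, Fos and Nfatc1. Osteoprotegerin (Tnfrsf11b) is a secreted decoy that binds RANKL and keeps it from RANK. M-CSF (Csf1) and IL-34 (Il34) both bind the M-CSF receptor (Csf1r), which keeps monocytes, macrophages and osteoclast precursors alive and lets them express RANK. Semaphorin 3A (Sema3a), made by osteoblasts and nerve cells among others, acts through neuropilin 1 and plexin A to restrain osteoclasts and favour bone formation. In bone, RANKL, osteoprotegerin and M-CSF come chiefly from osteoblasts, osteocytes, chondrocytes and marrow stroma, while RANK and the M-CSF receptor sit on cells of the myeloid lineage.

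The stretches before the start of 3 of these genes are shown because the ligand Tnfsf11 and its receptor Tnfrsf11a had ratios on opposite sides of 1, with Csf1 as the other ligand. Each is the 250 bases before the RefSeq start on build GRCm38.p6, 5′ to 3′ on the gene's own strand. They lie at chr14:78308044-78308293 on the minus strand, chr1:105780473-105780722 on the plus strand and chr3:107760470-107760719 on the minus strand. Capitals mark matches on either strand. The letters searched were TATAAA for the TATA box, GGGCGG for the GC box, TGTGGT for the RUNX site, GAGGAA for the core bound by PU.1 and TGAGTCA for the AP-1 site.
Tnfsf11: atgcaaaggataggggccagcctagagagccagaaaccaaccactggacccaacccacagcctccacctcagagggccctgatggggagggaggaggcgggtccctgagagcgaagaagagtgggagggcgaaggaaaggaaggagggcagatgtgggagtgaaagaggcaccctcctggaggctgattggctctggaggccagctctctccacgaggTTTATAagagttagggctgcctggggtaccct
Tnfrsf11a: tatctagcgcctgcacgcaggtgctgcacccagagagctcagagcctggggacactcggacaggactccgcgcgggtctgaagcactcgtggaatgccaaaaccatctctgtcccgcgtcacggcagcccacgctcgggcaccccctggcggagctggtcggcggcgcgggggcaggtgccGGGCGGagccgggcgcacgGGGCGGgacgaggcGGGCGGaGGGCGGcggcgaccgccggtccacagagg
Csf1: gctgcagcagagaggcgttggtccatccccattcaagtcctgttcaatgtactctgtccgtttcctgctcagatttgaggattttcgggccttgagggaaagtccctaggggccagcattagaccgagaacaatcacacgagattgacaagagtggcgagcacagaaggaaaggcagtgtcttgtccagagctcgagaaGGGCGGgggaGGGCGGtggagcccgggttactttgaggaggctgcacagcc

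The RANKL stretch held 1 TATA box match, at -32 to -27 from the start and read on the opposite strand, and no GC box match. The RANK stretch held 4 GC box matches and no TATA box match, and 73.6% of its bases were G or C, against 60.4% for Tnfsf11, 56.4% for Csf1 and a median of 52.0% over 27025 promoters. Csf1 held 2 GC box matches. No match overlapped another, and none of the 3 stretches held the RUNX, PU.1 or AP-1 letters. Of the 27025 promoters, 12.97% held the TATA box letters, 32.9% the GC box, 14.2% the RUNX site, 23.1% the PU.1 core and 4.43% the AP-1 site. A match is a run of letters and not a measured binding site.

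No member passed the threshold. A gene was called changed at a deposited adjusted p under 0.05, which 2.38% of all genes reached (2.28% called higher and 0.104% called lower), and 0 of the 7 members did. A ratio here and below has partial discectomy on top and sham beneath. By the authors' deposited table the receptors Csf1r and Tnfrsf11a stood at 1.80 and 1.61, and the ligand Tnfsf11 and the inhibitor Sema3a at 0.681 and 0.670. Csf1, Il34 and Tnfrsf11b lay closer to equal means, at 1.21, 0.864 and 0.984 in the authors' deposited table. An unadjusted p under 0.05 was reached by 2 members on the higher side, Csf1r and Tnfrsf11a, and by 1 on the lower side, Sema3a, against 10.9% and 3.31% of all genes. The same 3 members had 95% limits on 1 side of equal means, against 11.1% of all genes with limits above and 3.59% with limits below. The median log2 ratio was -0.02 over the members and 0.08 over all genes.

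Levels are normalized expression values in a unit that the authors' deposited table does not name. The lowest value is 1, here called the floor and read as an offset added to every library, which no source used here states. Because it is not known whether the values are per length, levels are compared within a gene and not between genes. Values per library were not analysed here, but the table also gives each gene's highest value, geometric mean and arithmetic mean over the 6 libraries. Together with the group means these limit where single libraries can lie, provided that all of them describe the same 6 values, and for 0 of 23170 genes did they contradict that reading. The highest library belonged to the partial discectomy group in 3 members and to the sham group in 2, and could be in either group for Il34 and Tnfrsf11b. Depth per library is unknown.

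**Figure D1:**
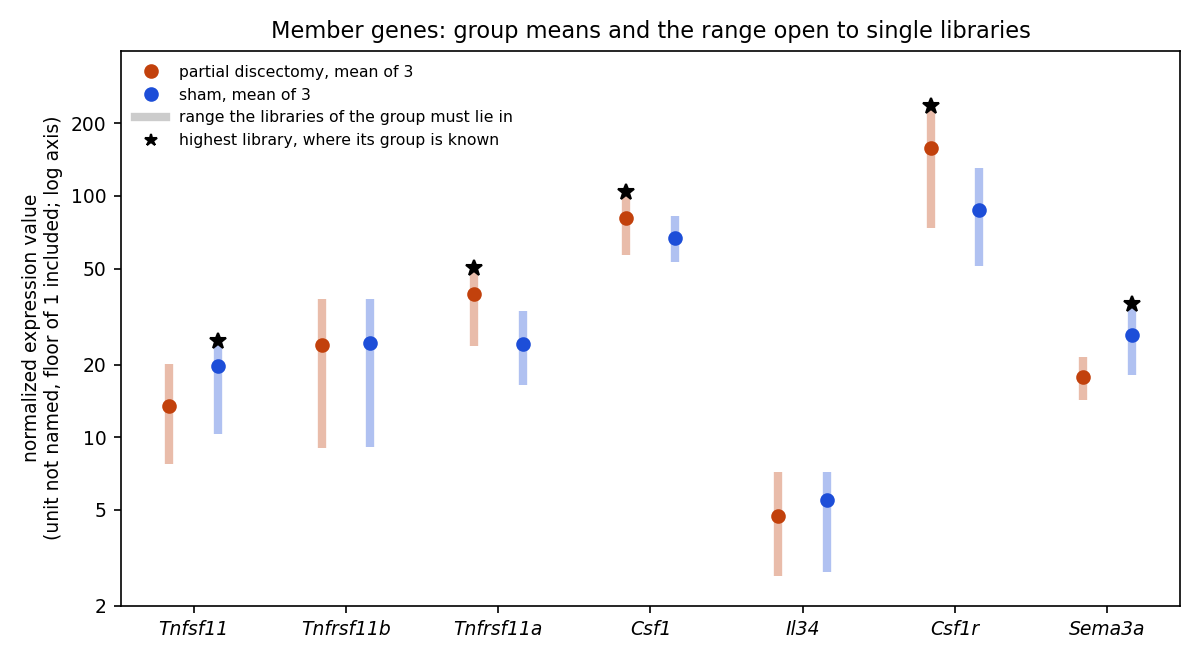
Normalized expression value (log axis, floor of 1 included) of the 7 genes, with dots for the mean of 3 libraries after partial discectomy (orange, left) and in sham (blue, right), bars for the range in which the libraries of a group must lie, and stars for the highest library where its group is known. The star is on the partial discectomy side for Csf1, Csf1r and Tnfrsf11a and on the sham side for Tnfsf11 and Sema3a, and the bars of the groups share values in every gene.

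Tnfsf11, the gene of RANKL (chromosome 14, 78277445 to 78308044, minus strand, build mm10), averaged 13.4 after partial discectomy and 19.8 in sham in the authors' deposited table. Its highest library, at 25.1, was a sham one. The other sham libraries averaged 17.1 and each stood at 10.3 or more. The partial discectomy libraries each lay between 7.71 and 20.2. Whether the groups overlapped is therefore not settled by these values. The authors' deposited table put the ratio at 0.681, with 95% limits of 0.423 to 1.10 and an adjusted p of 0.427. The limits reach from below 0.5 to a 1.10-fold rise. Without the highest sham library the ratio was 0.788.

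Tnfrsf11b, the gene of the decoy osteoprotegerin (chromosome 15, 54250619 to 54278485, minus strand), averaged 24.1 after partial discectomy and 24.5 in sham in the authors' deposited table. Its ratio of 0.984 had 95% limits of 0.514 to 1.88 in the authors' deposited table, where p after adjustment was 0.925. These were the widest limits of any member, with the upper 3.66 times the lower. Its highest library stood at 37.5, and the group of that library is not known. If it was a partial discectomy library, the ratio without it was 0.711. If it was a sham library, the ratio without it was 1.34. In either case the libraries of the groups had to overlap. Leaving out the highest value lowers its group by construction. These ratios thus do not show that the near-equal group means depend on 1 library.

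The relation of ligand to decoy is a common summary of the pull towards osteoclast formation. Relative to Tnfrsf11b, Tnfsf11 was 0.692 times as high after partial discectomy as in sham, a log2 difference of -0.53 computed from the authors' deposited table. With the floor subtracted from every mean the log2 difference was -0.57. The 95% limits of both genes share values, and the quotient itself could not be tested on group means. Its denominator is the gene whose highest library has no known group.

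Tnfrsf11a, the gene of the receptor RANK (chromosome 1, 105780718 to 105847982, plus strand), averaged 39.2 after partial discectomy and 24.4 in sham in the authors' deposited table. Its highest library was a partial discectomy one at 50.1. The other partial discectomy libraries averaged 33.8 and each stood at 23.8 or more. The sham libraries each lay between 16.5 and 33.3. The ratio of 1.61 had 95% limits of 1.08 to 2.40 in the authors' deposited table, where p was 0.0236 before and 0.248 after adjustment over all genes. Without the highest library the ratio was 1.38. Tnfsf11 relative to Tnfrsf11a was 0.424 times as high after partial discectomy as in sham, by the authors' deposited table, and the 95% limits of ligand and receptor still met between 1.08 and 1.10.

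**Figure D2:**
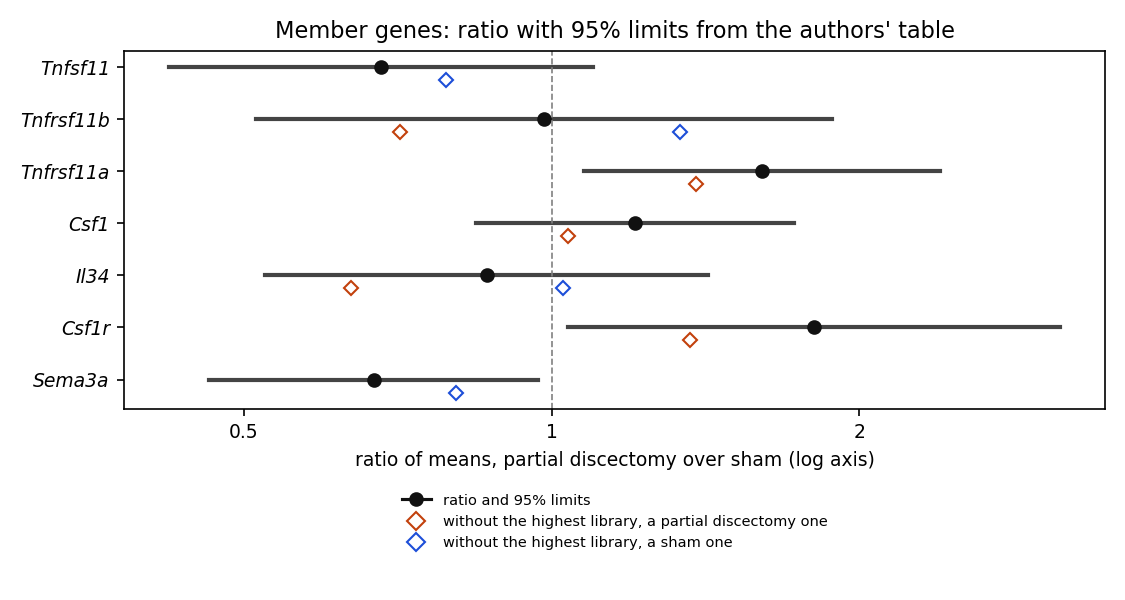
Ratio of group means, partial discectomy over sham (log axis), with the 95% limits of the authors' deposited table for the 7 genes, and diamonds for the ratio without the highest library (orange where that library is a partial discectomy one, blue where it is a sham one, both where its group is not known). The limits of Tnfrsf11a, Csf1r and Sema3a lie on 1 side of equal means, and every diamond of a gene whose highest library has a known group lies nearer to 1 than the dot. In those genes the highest library was in the group with the higher mean, so leaving it out moves the ratio that way by construction.

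Csf1, the gene of M-CSF (chromosome 3, 107741048 to 107760470, minus strand), averaged 81.0 after partial discectomy and 67.1 in sham in the authors' deposited table. The highest library was a partial discectomy one at 103.7. The other partial discectomy libraries averaged 69.7, close to the sham mean, and the sham libraries each lay between 53.1 and 82.2. The ratio of 1.21 had 95% limits of 0.844 to 1.73 in the authors' deposited table, where p after adjustment was 0.668. These are the narrowest limits among the members, the upper being 2.05 times the lower. Without the highest library the ratio was 1.04. The sham mean kept its own highest library, so this value does not show that the difference rests on 1 library.

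Il34, the gene of the second ligand of the same receptor (chromosome 8, 110741829 to 110805925, minus strand), averaged 4.72 after partial discectomy and 5.46 in sham in the authors' deposited table. It had the smallest distance from the floor of the 7 genes, so that the floor weighs most on its ratio. The authors' deposited table put the ratio at 0.864, with 95% limits of 0.524 to 1.42 and an adjusted p of 0.749. Its highest library, at 7.20, could be in either group, and the groups had to overlap. The ratio was 0.637 without it if it was a partial discectomy library and 1.03 if it was a sham library. The annotation places the long noncoding RNA gene Gm15894 on the opposite strand within Il34, at 0.0742 after partial discectomy and 0.358 in sham above the floor of the authors' deposited table. Whether counting used strand is not given in the sources used here.

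Csf1r, the gene of the receptor of both ligands (chromosome 18, 61100598 to 61132150, plus strand), averaged 158 after partial discectomy and 87.5 in sham in the authors' deposited table. Its highest library was a partial discectomy one at 235.0, which held 49.6% of that group's total. The other partial discectomy libraries averaged 119.5 and lay between 73.5 and 165.5. The sham libraries each lay between 51.1 and 130.1. The ratio of 1.80 had 95% limits of 1.04 to 3.14 in the authors' deposited table, where p was 0.0462 before and 0.339 after adjustment over all genes. Without the highest library it was 1.37. The end of Csf1r shares 873 bases with Hmgxb3 on the opposite strand, whose ratio was 1.09 in the authors' deposited table.

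Sema3a, the gene of the inhibitor semaphorin 3A (chromosome 5, 13125414 to 13602566, plus strand), averaged 17.8 after partial discectomy and 26.5 in sham in the authors' deposited table. Its highest library was a sham one at 35.5. The other sham libraries averaged 22.0 and each stood at 18.2 or more. The partial discectomy libraries each lay between 14.3 and 21.5. Any overlap of the groups could thus only lie between 18.2 and 21.5. The ratio of 0.670 had 95% limits of 0.463 to 0.971 in the authors' deposited table, where p was 0.0495 before and 0.349 after adjustment over all genes. Without the highest sham library the ratio was 0.806. The table places 4 further genes of unclear type inside the span of Sema3a.

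In all 7 members the log2 ratio lay between -1 and 1. Groups whose libraries could not overlap were found for 0 members, against 7.98% of all genes. Groups that had to overlap were found for 2 members, against 33.3% of all genes, and the remaining 5 members were not settled, against 58.7% of all genes. By the log2 ratio of the authors' deposited table, Csf1r stood at percentile 95.6 of all genes, Tnfrsf11a at 93.3, Tnfsf11 at 3.03 and Sema3a at 2.80. Among the genes with a mean of at least 5 above the floor, these percentiles were 94.6, 91.8, 3.55 and 3.32.

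Around the members, 8 lists hold 112 genes of the same signalling system, of which 106 are in the table. Calls in the authors' deposited table were 7 higher and 0 lower, against 2.28% and 0.104% of all genes. Before adjustment p was under 0.05 for 31 on the higher side and 5 on the lower, against 10.9% and 3.31%. The highest library was a partial discectomy one in each of the 7 that rose, and in 6 of them the libraries of the groups could not overlap, which describes genes that the same contrast had picked.

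Among other binding partners of the member proteins 0 of 9 were called in either direction, with 2 higher and 0 lower at an unadjusted p under 0.05 and a median log2 ratio of 0.31. Lgr4, another receptor of RANKL, had a ratio of 1.11 (95% limits 0.673 to 1.84) in the authors' deposited table. Nrp1, which binds semaphorin 3A, had a ratio of 1.10 (0.816 to 1.496), and the co-receptor Plxna1 one of 0.938 (0.660 to 1.33), per the authors' deposited table. The 2 on the higher side were Plxna2, another plexin A gene (1.49, 1.02 to 2.18, adjusted p = 0.305), and Tnfsf10 (1.55, 1.04 to 2.31, adjusted p = 0.270), by the authors' deposited table. Of the 4 proteases that release RANKL from the membrane none was called or passed an unadjusted p under 0.05, where the authors' deposited table gave Mmp14 a ratio of 0.793, Adam10 one of 1.31 and Adam17 one of 1.02.

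Another 19 listed genes raise Tnfsf11 in stromal cells or receive such signals, and their median log2 ratio was 0.26. At an unadjusted p under 0.05, 6 of the 19 were higher and 2 lower, and by adjusted p 2 rose and 0 fell. These were Il17ra, a receptor subunit for interleukin 17, at 28.6 after partial discectomy and 14.3 in sham above the floor (ratio 1.93, limits 1.42 to 2.63, adjusted p = 0.0416), and Il1b, which encodes interleukin 1 beta (ratio 2.25, 1.60 to 3.17, adjusted p = 0.0323), both from the authors' deposited table. Il1b was close to the floor, at 1.49 after partial discectomy and 0.106 in sham above it in the authors' deposited table, and a minimum mean of 1 above the floor removes it and leaves 1 call in the list. The vitamin D receptor gene Vdr had a ratio of 1.42 (0.522 to 3.88) and the parathyroid hormone receptor gene Pth1r one of 1.14 (0.670 to 1.93) in the authors' deposited table. For Pthlh, the parathyroid hormone-like ligand of that receptor, the authors' deposited table put the ratio at 0.462 (0.241 to 0.884, adjusted p = 0.304). Pthlh was also low, at 1.28 after partial discectomy and 3.94 in sham above the floor. Its log2 ratio was -1.12, and -1.62 with the floor subtracted. Il6 was on the list and was not analysed here.

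Downstream of RANK 0 of 25 genes were called in either direction by the authors' deposited table, and for none of them was p under 0.05 before adjustment. The log2 ratios of these 25 genes lay between -0.19 and 0.42, with a median of 0.17. Of the ratios 19 of 25 were above 1, against 62.7% of all genes. The adaptor Traf6 had a ratio of 1.26 (0.939 to 1.68), Nfatc1, the transcription factor that sets osteoclast fate, 1.20 (0.811 to 1.77), and Fos 1.32 (0.897 to 1.95) in the authors' deposited table. Their upper limits lie below a 2-fold rise in each of these 3 genes. Most of these genes are used by many cell types of bone.

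The 14 genes listed for the M-CSF receptor and its signalling had a median log2 ratio of 0.42. At an unadjusted p under 0.05, 6 of the 14 were higher and 0 lower, and by adjusted p 2 rose and 0 fell. These were Pik3cd, the leukocyte subunit of phosphoinositide 3-kinase (ratio 2.56, 1.77 to 3.70, adjusted p = 0.0181), and Ptpn6, the phosphatase SHP-1 that dampens the receptor (2.86, 1.78 to 4.59, adjusted p = 0.0307), both from the authors' deposited table. Spi1, the gene of the myeloid transcription factor PU.1, averaged 26.5 after partial discectomy and 10.6 in sham above the floor, which the authors' deposited table gives as a 2.37-fold ratio (1.51 to 3.72, adjusted p = 0.0752). By the authors' deposited table Mitf, a partner of PU.1, stood at 0.857 and the kinase gene Src at 1.41. Of 13 costimulatory genes, which act with RANK through immunoreceptor signals, 2 rose and 0 fell, while 10 were higher and 0 lower at an unadjusted p under 0.05. The 2 were Btk, a kinase of B and myeloid cells (2.33, 1.64 to 3.31, adjusted p = 0.0232), and the signalling chain Fcer1g (2.59, 1.63 to 4.12, adjusted p = 0.0489), both from the authors' deposited table. Their median log2 ratio was 0.81. By the authors' deposited table Tyrobp, the other signalling chain, was at 2.42 (1.20 to 4.86, adjusted p = 0.246) and Trem2, which pairs with it on macrophages and osteoclasts, at 1.08.

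Among genes that restrain osteoclast formation 1 of 10 in the table rose and 0 fell, Csf2ra, a receptor subunit for GM-CSF (2.10, 1.48 to 2.98, adjusted p = 0.0418), as called in the authors' deposited table. At an unadjusted p under 0.05, 5 of the 10 were higher and 0 lower. The cytokine genes Ifnb1, Ifng, Il4, Il13 and Csf2 were also listed but are not among the 10, so these counts do not cover them. Readjusted over genes with a mean of at least 1 above the floor, 2 were called higher, and at a minimum of 5 it was 1. Of the repressor genes, Irf8 stood at 2.48 (1.38 to 4.47, adjusted p = 0.0872) and Bcl6 at 1.10, per the authors' deposited table. Of 12 other signals between bone cells and osteoclasts none was called in either direction, with 2 higher and 3 lower at an unadjusted p under 0.05. Those 3 were Wnt5a, a ligand that raises RANK on precursors (0.679, 0.490 to 0.941), its receptor Ror2 (0.537, 0.354 to 0.816) and Wnt16 (0.655, 0.478 to 0.899), and their adjusted p was 0.260, 0.150 and 0.227 by the authors' deposited table. Wnt16 was close to the floor, averaging 1.36 after partial discectomy and 2.08 in sham with the floor of 1 included, so the floor weighs on its ratio. The 2 on the higher side were Sema4d, which osteoclasts use to restrain osteoblasts (1.80, 0.973 to 3.32, adjusted p = 0.316), and the Fas ligand gene Fasl, at 0.295 above the floor after partial discectomy and listed at the floor in sham (adjusted p = 0.174), by the authors' deposited table.

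**Figure D3:**
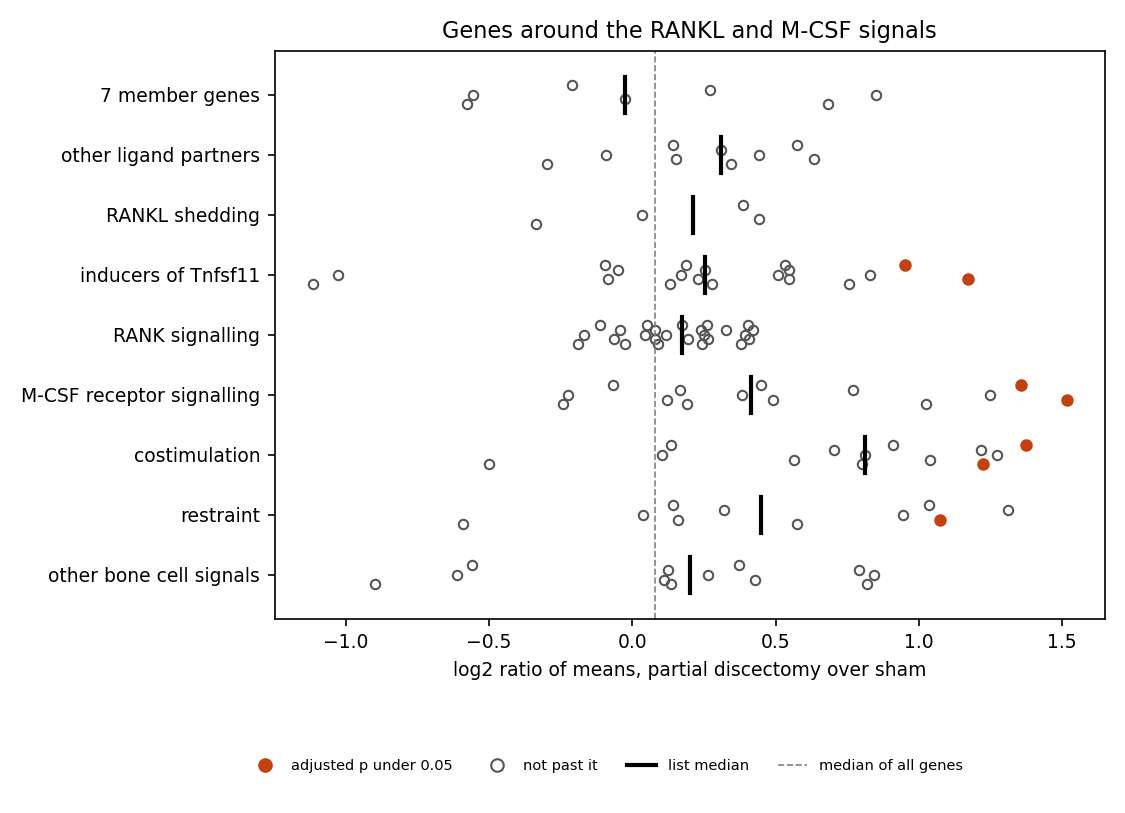
Log2 ratio of group means, partial discectomy over sham, for the 7 member genes and for each gene of 8 lists around them, with filled points for genes at a deposited adjusted p under 0.05, black lines for list medians and a dashed line for the median of all genes at 0.08. The RANK signalling genes lie between -0.19 and 0.42, and the 7 filled points all lie above 0.

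Markers of cell types were set beside these values, and their part in the member results was not tested. In bulk bone, fewer cells of a type and less RNA per cell cannot be told apart. Bone markers were present as the tissue label gives: each of the 6 osteoblast markers stood at 133.6 or more above the floor in sham in the authors' deposited table, and cartilage markers were present as well. For the receptors the nearest lists are osteoclasts, macrophages and monocytes. The 12 osteoclast markers were all above 1 in ratio, against 62.7% of all genes. Their log2 ratios had a median of 0.76, and 1 was called, Car2, which red cells also express. The summed osteoclast level above the floor was 3459 after partial discectomy and 1817 in sham by the authors' deposited table. Of this sum over genes Mmp9, which neutrophils also express, made up 1151 after partial discectomy and 599 in sham. The 9 macrophage markers had a median log2 ratio of 0.09 and no call, with 2 higher and 0 lower at an unadjusted p under 0.05. The 5 monocyte markers had a median of 0.86 with 2 called higher, Ccr2 and Ly6c2. The log2 ratios of the receptors were 0.85 for Csf1r and 0.68 for Tnfrsf11a. Endothelial markers had a median of 0.58 with no call, so these values single out no list. All 8 neutrophil and all 6 red cell markers rose, with medians of 3.83 and 3.39.

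For the ligands and for Sema3a the lists that matter are those of the cells that make them. Osteoblast markers had a median log2 ratio of 0.30, osteocyte markers 0.83, cartilage cell markers -0.10 and fibroblast and marrow stroma markers -0.08. None of the osteoblast, osteocyte or cartilage cell markers was called. Of the 9 stroma markers Cxcl12, Kitl and Ebf3 rose, while Prrx1 of mesenchymal cells had a ratio of 0.612 in the authors' deposited table. The log2 ratios of Tnfsf11 and Sema3a, -0.55 and -0.58, lay within the range of the stroma markers, -0.71 to 2.01, as did those of all members. Both values were also within the range of the skeletal muscle markers, -0.85 to -0.19. They were below the lowest osteoblast (-0.19), osteocyte (0.63) and cartilage cell (-0.40) markers. Skeletal muscle markers had a median of -0.50, with 0 of 5 above 1 in ratio, against 62.7% of all genes, and none called. B cell and T cell markers, which belong to blood cells that can also make RANKL, had medians of 1.39 and 0.52, or 1.61 and 2.11 with the floor subtracted, and 5 of the 6 T cell markers stood under 1 above the floor in sham.

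**Figure D4:**
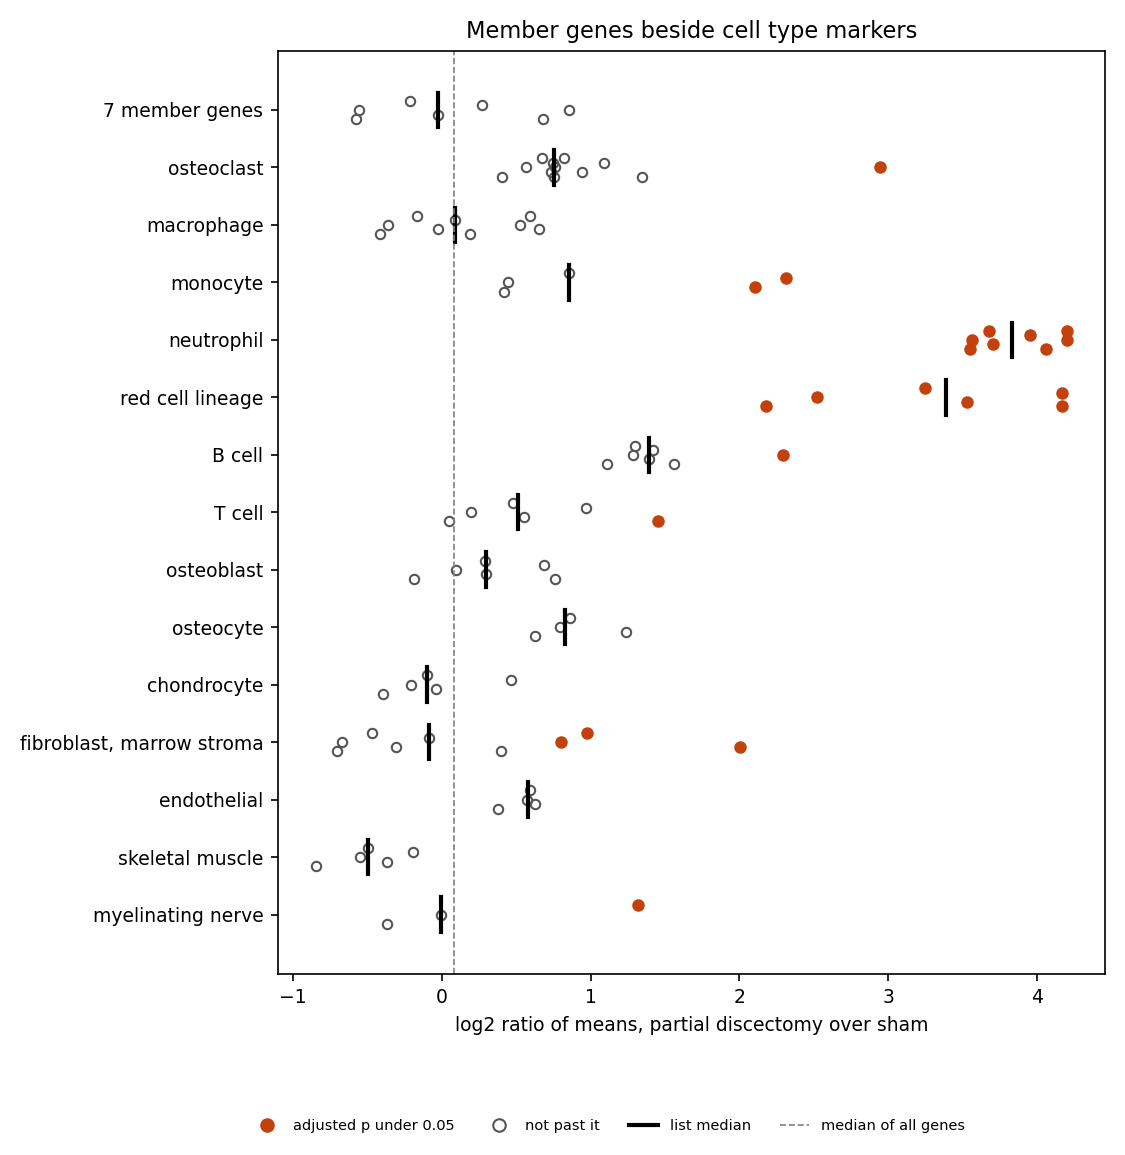
Log2 ratio of group means, partial discectomy over sham, for the 7 member genes and for the markers of 14 cell types, with filled points for a deposited adjusted p under 0.05, black lines for medians and a dashed line for the median of all genes. Neutrophil and red cell markers lie above 2, the osteoclast markers above 0.4, and the members between -0.58 and 0.85.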

How the data were processed

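The submitters' processing notes name STAR 2.6.1d and mouse build mm10. The read counter, the normalization and the statistical model were not given in the sources used here. All values come from 1 table deposited by the authors, which compares 3 partial discectomy with 3 sham libraries. Its signal columns hold group means, the highest value and the overall means in a deposited normalized unit that is not named. Its ratio and log2 columns were deposited by the authors as partial discectomy over sham. The signed fold changes and their limits, entered as a score because they can be negative in the authors' table, were turned into ratios. The p-values were deposited by the authors, and their adjusted p equalled the Benjamini-Hochberg adjustment over all 23170 genes. The spread those p-values measure is not known, and may be technical. The second file held gene positions and symbols and was not used.

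Positions are those of the table. Of 19114 genes matched to RefSeq by symbol and chromosome, 1705, with 2 of the 7 members among them, had an equal start and a stop 1 base past the RefSeq end. Limits on single libraries were derived from the group means, the highest value and the geometric mean, with each library at 1 or more, using Python 3.11.15, pandas 2.3.3 and NumPy 2.4.6, and were checked on simulated data. Promoter entries from RefSeq were used for 4 of 7 members, with chromosome 18, where Csf1r lies, left out beforehand. That of Sema3a lies away from the table's start and is not printed. The members, lists and alternatives were chosen with earlier results of these data known. Named genes are all members, the first 3 genes of each list of the signalling system with any called gene, and markers on which a result turns. Prrx1, Mmp9, Sema4d, Fasl, Plxna2 and Tnfsf10 were chosen after their values were seen. A gene that this rule names is not reported here.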

Additional observations from a re-analysis of the deposited data

How the results depend on the processing

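No paired analysis was possible because the table's columns are group means that carry no replicate number, and the sample descriptions share only 1 number between the groups. A fit of counts for single libraries was not run for the same reason. All 7 members kept their direction when the floor was subtracted or the ratio was set against the median of all genes or the summed group means (a log2 ratio of 0.13), and 0 were called when p-values were readjusted over protein-coding genes or over genes with a mean of at least 1 or 5 above the floor. Il34 falls under the last minimum, at which calls were 6 in the lists of the signalling system and 19 in the marker lists, against 7 and 23 over all genes. By 95% limits on 1 side of equal means, 2 members were higher (log2 ratios 0.68 for Tnfrsf11a and 0.85 for Csf1r) and 1 lower (-0.58 for Sema3a), while the lists of the signalling system had 30 higher and 6 lower, the marker lists 38 and 1, and all genes 2566 and 832. Over genes with a mean of at least 5 above the floor all genes gave 233 higher and 10 lower, where fewer genes were tested. Without the highest library the log2 ratio was -0.34 for Tnfsf11, 0.054 for Csf1, 0.47 for Tnfrsf11a, 0.45 for Csf1r and -0.31 for Sema3a. It ran from -0.65 to 0.038 for Il34 and from -0.49 to 0.42 for Tnfrsf11b, depending on the group of that library. Leaving out the highest value lowers its group by construction. Relative to the summed group means the macrophage median turned to -0.048, and the cause was not tested. Depth is unknown, so no detection limit is given.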

Other observations

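For 66.5% of all genes the deposited values settle which group held the highest of the 6 libraries, and in 67.1% of those it was a partial discectomy library. Among the 7 members it was a partial discectomy library in 3, a sham library in 2 and not settled in 2. Of the ligand IL-11 and its receptor, which also raise Tnfsf11 in stromal cells, Il11 was close to the floor in both groups, and Il11ra1 averaged 9.65 after partial discectomy and 20.7 in sham above it, which the authors' deposited table gives as a ratio of 0.491 (0.296 to 0.814, adjusted p = 0.198). Il11ra1 was picked after its values were seen.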
